A study of Homo sapiens with 42 samples.

Results

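The genes for human 5S ribosomal RNA, and the many genomic sequences that resemble them, were followed through 30 small RNA libraries. They were the rows of the count table, at most 500 bases long, that carry the symbol RNA5S with a number or have 5S rRNA as their annotated family. Of 175946 rows, that rule chose 17 that carry an RNA5S symbol (the RNA5S genes) and 374 that do not (the rows without a symbol). Of the latter, 300 matched an rRNA pseudogene of GENCODE 29, 16 matched an entry of rRNA type, and 58 matched no 5S entry of that annotation.

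5S rRNA is the small RNA of the large ribosomal subunit that RNA polymerase III (Pol III), and not RNA polymerase I, transcribes. Its genes lie in a tandem array and carry their promoter inside the transcribed sequence, where the factor TFIIIA binds, and the finished RNA is carried to the ribosome by the proteins RPL5 and RPL11. Reverse-transcribed copies of the RNA were inserted all over the genome and decayed there as pseudogenes. POLR3G and POLR3GL are alternative forms of the same Pol III subunit, and the series concerns the loss of either.

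The libraries came from 5 groups of cells. A4, A7, E4 and G8 are labelled as THP-1, a human monocytic leukaemia line, from a study of POLR3G and POLR3GL knockouts. The labels do not state which gene was targeted in which of them, nor whether each is a clone. The group labelled mock is described as HEK293T, a human embryonic kidney line, given 200 nM of a control antisense oligonucleotide with Lipofectamine RNAiMAX. Small RNA, enriched with the mirVana PARIS kit, was sequenced either as it was or after Antarctic phosphatase and polynucleotide kinase (without PNK and with PNK), enzymes that trim and restore the phosphates at RNA ends and so let otherwise unligatable fragments into a library. Each group had 3 libraries without PNK and 3 with it. A further 12 samples, labelled con or given an oligonucleotide against POLR3G, are not analysed here, so that no THP-1 group labelled as a control enters a comparison. The labels do not say that the 3 libraries of a group came from separate cultures, so that a p-value rests on library-to-library spread alone, which may be technical.

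Counts over rows that do not overlap came to between 9652574 and 13270626 in libraries without PNK and to between 5545464 and 7871873 in those with PNK. The libraries labelled mock carried the haematopoietic miRNAs of THP-1: 6 such markers summed to between 5019 and 7205 CPM (counts scaled to a common library size per 1000000 counts) in them without PNK, and to between 5348 and 9448 CPM in A4, A7 and E4. MIR142, MIR155 and MIR223 made up nearly all of that sum, while MIR150, MIR144 and MIR451A stayed under 5 CPM. The data therefore go against the HEK293T label, and these libraries are named only by their label. Without PNK, G8 libraries 1 and 2 stood apart, with 2.01% and 2.05% of their counts in miRNA against 12.9% to 25.9% in the other 13 libraries. With PNK the same 2 numbers of G8 had 0.219% and 0.185%, against 0.456% to 1.10% elsewhere.

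The gene array spans 35.9 kb of the minus strand, chr1:228610268-228646158 (GRCh38), with repeats 2215 to 2242 bases apart (median 2241). GENCODE 29 names its units RNA5S1 to RNA5S17. The count table gives 16 of them the symbol RNA5S8 and the remaining unit RNA5S9. Each gene has 119 bases, lies in no other annotated gene and has no other annotated row over it. RNA5S1 (ENSG00000199352.1, chr1:228610268-228610386, minus strand) is identical in all 16 copies. RNA5S9 (chr1:228628148-228628266, minus strand) differs from RNA5S1 by a single base, and so does RNA5SP202 (ENSG00000201185.1, chr6:4427963-4428081, plus strand, in an intron of AL162718.1 on its other strand), at another position. RNA5SP202 is thus a full-length pseudogene with the same number of changes as the gene RNA5S9. The counts of both differ from those of the copies, though reads that miss the changed base can be shared.

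Other pseudogenes carry scattered changes, and are described here by where their longest exact run with RNA5S1 lies, which does not say how much of the gene they keep. RNA5SP370 (chr12:104125236-104125356, plus strand, in an intron of NFYB on the other strand), with 17 base changes from RNA5S1, has that run over bases 1 to 90. RNA5SP225 (chr6:153420438-153420544, plus strand, intergenic) has it in the middle, over bases 37 to 89. RNA5SP358 (chr12:38161466-38161582, minus strand, intergenic) and RNA5SP357 (chr12:34205699-34205817, plus strand, in an intron of AC140847.2 on the other strand), with 21 and 13 changes, have it at the 3′ end, over bases 85 to 119 and 95 to 119. Bases are counted from 1 at the 5′ end of RNA5S1.

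The RNA5S genes held most of the 5S signal. Over all libraries the 5S rows had 1824126 counts, 84.9% of them in the 17 genes. The 16 identical copies had 94656 to 95545 counts each, and RNA5S9 had 26955. Within a library, the variance of the count between the 16 copies was 0.227 to 1.96 times its mean, close to what sampling alone gives when reads are dealt out among identical copies. The copies are therefore not separate measurements, and RNA5S1 stands for them in what follows.

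The rows without a symbol were mostly silent. Of the 374, 73 had no count in any library, which allows up to 3 counts per row by counting error alone, 204 had fewer than 10 counts, and the median was 6. Only 35 reached 1000 counts. RNA5SP202 alone had 125937 counts, more than any single gene copy, which is 6.90% of all 5S counts and 45.7% of those without a symbol. By position, 216 of these rows lie in introns, 135 between genes and 23 over exons of annotated transcripts, on 24 chromosomes. At least 1 count was seen for 236 of them in the A4 libraries, for 214 in A7, for 233 in E4, for 206 in G8 and for 217 in the libraries labelled mock.

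Likeness to the gene went with a higher count. Among 224 rows that match a GENCODE entry end to end, the distance from RNA5S1 ran from 1 to 53 base changes (median 25), 3 rows had 5 or fewer, and the Spearman correlation of distance with count was -0.40. The longest exact run shared with RNA5S1 ordered the counts more closely, at 0.64 over 316 rows with a sequence. The 24 rows with a run of 40 bases or more had a median of 1808 counts, and the 292 others 5.5. These are descriptions across rows that share reads with the genes and with each other. The assignment of reads with several alignments is not described in the labels or the table. Whether strand was kept is not given either. In 19 of 19 cases where a row of 100 counts or more lay inside a row of the opposite strand, the outer row had at least its count. A longer row could reach that with reads of its own, so the check does not settle it. Reads of a host transcript and of the row are therefore not told apart here.

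Together, the 5S rows took 0.211% to 0.850% of the counts of a library without PNK and 0.586% to 2.96% with it. The genes' part of the 5S counts averaged 86.4% without PNK and 83.0% with it. In A4 it was 92.4%, 91.3% and 83.4% without PNK and 81.6%, 82.8% and 81.1% with it. All 3 A4 libraries with PNK lay below all 3 without, which was not so in the other 4 groups, where the arms overlapped.

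Without PNK, RNA5S1 varied widely within groups. Its level after scaling by the trimmed mean of M values (TMM) was 497, 423 and 133 CPM in A4, and 231, 228 and 123 CPM in E4. It was 661, 342 and 127 CPM in G8. In each of these groups library 3 was low and libraries 1 and 2 were high. A7 had 98.1, 81.1 and 138 CPM, and the libraries labelled mock 102, 106 and 202 CPM. Those levels overlapped library 3 of the other groups, and no group was separate from the rest.

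The edgeR quasi-likelihood test across A4, A7, E4 and G8 called none of the 63 5S rows tested without PNK (20 at an unadjusted p under 0.05), where 32.5% of all features were called. The largest difference in RNA5S1 between group means was 1.73 on the log2 scale (adjusted p = 0.0908). DESeq2 called 25 of the 63, where it called 922 of all 1792 features. With G8 libraries 1 and 2 left out edgeR called 13 5S rows (669 of 2074 features). It called 27 without G8 library 3 (1306 of 1900) and 8 without A4 library 3 (569 of 1894).

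**Figure D1:**
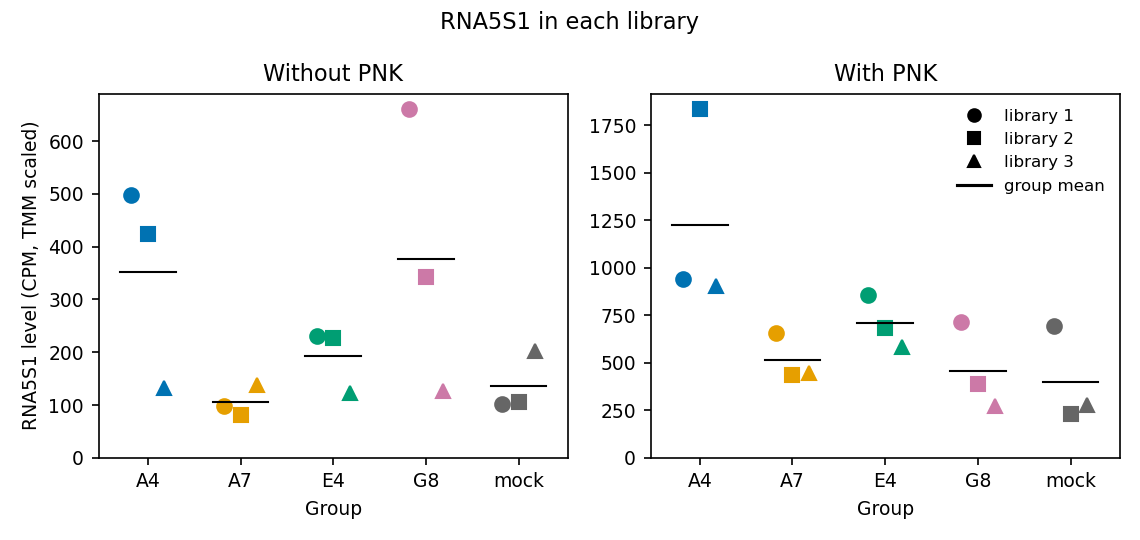
Level of RNA5S1 in CPM (TMM scaled, separate axes starting at 0) in each library of the 5 groups, without PNK at left and with PNK at right. Symbols mark the library number and bars the group mean. Without PNK, libraries 1 and 2 of A4, E4 and G8 lie above library 3. With PNK, the A4 libraries, from 902 to 1836 CPM, lie above all other libraries.

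With PNK, RNA5S1 was highest in A4. It had 939, 1836 and 902 CPM in A4, 659, 434 and 447 CPM in A7, and 858, 684 and 582 CPM in E4. G8 had 712, 390.6 and 271 CPM. The lowest A4 library stood above the highest of the 9 other THP-1 libraries, and the other 3 groups overlapped each other. The A4 mean was 1226 ± 528 CPM, against 513 ± 126 for A7, 708 ± 140 for E4 and 458 ± 228 for G8 (SD, n = 3 each).

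The test across the 4 groups with PNK called 59 of 72 5S rows, where 22.2% of all features were called. All 17 genes were among them, as were 42 of 55 rows without a symbol. Of the genes, 16 are identical copies, and the rows can share reads, so they are not separate measurements. For RNA5S1 the span of the group means was 1.44 on the log2 scale (adjusted p = 0.0253). The call on RNA5S1 ended without A4 library 2 (adjusted p = 0.127), A7 library 3 (0.0546) or G8 library 2 (0.0566). Without A4 library 2 only 29 5S rows were called (1484 of 9248 features). With G8 libraries 1 and 2 left out, which leaves a single G8 library, the span was 2.17. In bulk RNA, fewer cells of a kind and less RNA per cell cannot be told apart.

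The gene variant RNA5S9 can be told from the other copies only by reads over its single changed base. Reads elsewhere can be shared with the copies, so its order is not separate from theirs. RNA5S9 followed the same order with PNK. It had 304, 507 and 349 CPM in A4, 229, 166 and 155 CPM in A7, 235, 191 and 199 CPM in E4, and 213, 94.3 and 87.1 CPM in G8. A4 again lay above all other THP-1 libraries. The span was 1.57 (adjusted p = 0.0122), and A4 exceeded G8 by 1.57 (SE 0.33, adjusted p = 0.00491) and A7 by 1.07 (SE 0.32, adjusted p = 0.0395). The call across groups ended without A4 library 2 (adjusted p = 0.0548), and the call against A7 without A4 library 2 (0.154), A7 library 2 (0.126) or A7 library 3 (0.140).

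The pseudogene RNA5SP202 was higher than RNA5S1 in every library with PNK. It had 1212, 2467 and 1365 CPM in A4, 1215, 763 and 915 CPM in A7, 1186, 833 and 986 CPM in E4, and 947, 535 and 612 CPM in G8. The lowest A4 library, at 1212 CPM, lay just below the highest A7 library, at 1215 CPM, so the groups overlapped. The span was 1.28 (adjusted p = 0.0352). A4 exceeded G8 by 1.28 (SE 0.31, adjusted p = 0.0136), whereas its differences from A7 (0.80, SE 0.31) and E4 (0.75, SE 0.31) did not pass the test (adjusted p = 0.103 and 0.148). The call across groups ended without A4 library 2, A7 library 3, E4 library 2 or 3 or G8 library 2 (adjusted p = 0.0565 to 0.160) and without both G8 libraries 1 and 2 (0.0505). Against G8 it ended without A4 library 2 (0.0678) or G8 library 2 (0.0665).

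Set against the gene copies of the same library, both variants showed which libraries differed without PNK. A count of RNA5S9 equal to that of a copy would be 100% of the mean of the 16. Without PNK it was 15.0%, 17.4% and 39.6% in A4, 23.9%, 23.6% and 37.2% in E4, and 11.1%, 12.3% and 38.4% in G8. Libraries 1 and 2 of these groups were low, and library 3 was near A7, with 34.0%, 37.5% and 35.4%, and the libraries labelled mock, with 35.1%, 37.5% and 28.6%. The libraries with the lowest RNA5S9 share were those with the highest RNA5S1 level. RNA5S1 is one of the copies that the share is divided by, so this order is partly set by how the share is made. With PNK all 15 libraries lay between 25.0% and 38.4%. RNA5SP202 ran from 63.4% to 150% of the copy mean without PNK and from 123% to 222% with it.

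**Figure D2:**
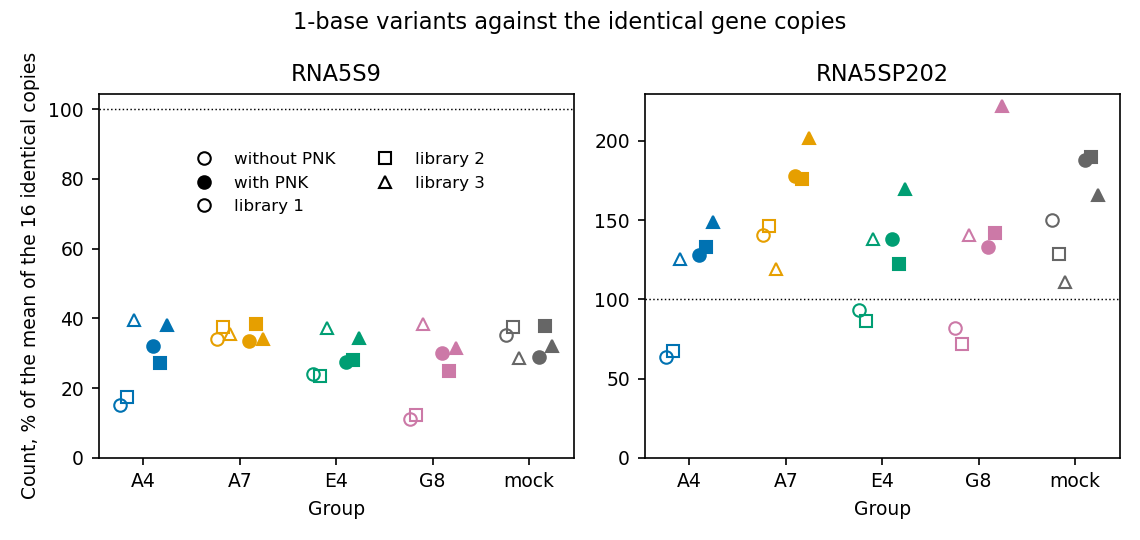
Counts of RNA5S9 (left) and RNA5SP202 (right) as a percentage of the mean count of the 16 identical RNA5S copies in the same library. Open symbols are libraries without PNK, filled ones with PNK, and the symbol shape gives the library number. Libraries 1 and 2 of A4, E4 and G8 without PNK are the low open points for RNA5S9, from 11.1% to 23.9%, and every filled point for RNA5SP202 is above 100%.

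The rows without a symbol were sorted by exact runs shared with the gene. Of those tested in both arms, 44 in all, 37 have a sequence in GENCODE, and the limits between the kinds were chosen after the values were seen, so that no test is given. A kind does not say how much of the gene a row keeps: RNA5SP506, RNA5SP132 and RNA5SP357, with 5, 12 and 13 base changes from RNA5S1, are among the rows that share its last 20 bases. Of 11 rows that share the last 20 bases of the gene, 10 were lower with PNK than without, relative to the 16 copies, with a median of -2.51 on the log2 scale. The exception was RNA5SP202, at 0.48, which is the gene but for a base. Of 15 rows with a run of 45 bases or more that stops before the 3′ end, 14 were higher with PNK relative to the copies, with a median of 1.16, and RNA5SP161, at -0.12, was not. Rows of a kind whose runs cover the same stretch can share reads and are not separate measurements.

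Of 11 rows with shorter runs, 9 were lower, with a median of -0.91. The 2 others were RNA5SP442, at 0.57, and RNA5SP387, at 2.41, a row of 19 bases that is also annotated as the miRNA MIR7641-2. The highest values among rows with longer runs, rows picked here after their values were seen, belonged to RNA5SP259 (2.56), RNA5SP352 (2.36), RNA5SP502 (2.22) and RNA5SP225 (2.10), whose runs all lie between bases 37 and 90 of the gene. RNA5SP225 went from a median of 0.575% of the copy mean without PNK to 2.46% with it. RNA5SP357, whose exact run is at the 3′ end, went from 8.78% to 1.34%.

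**Figure D3:**
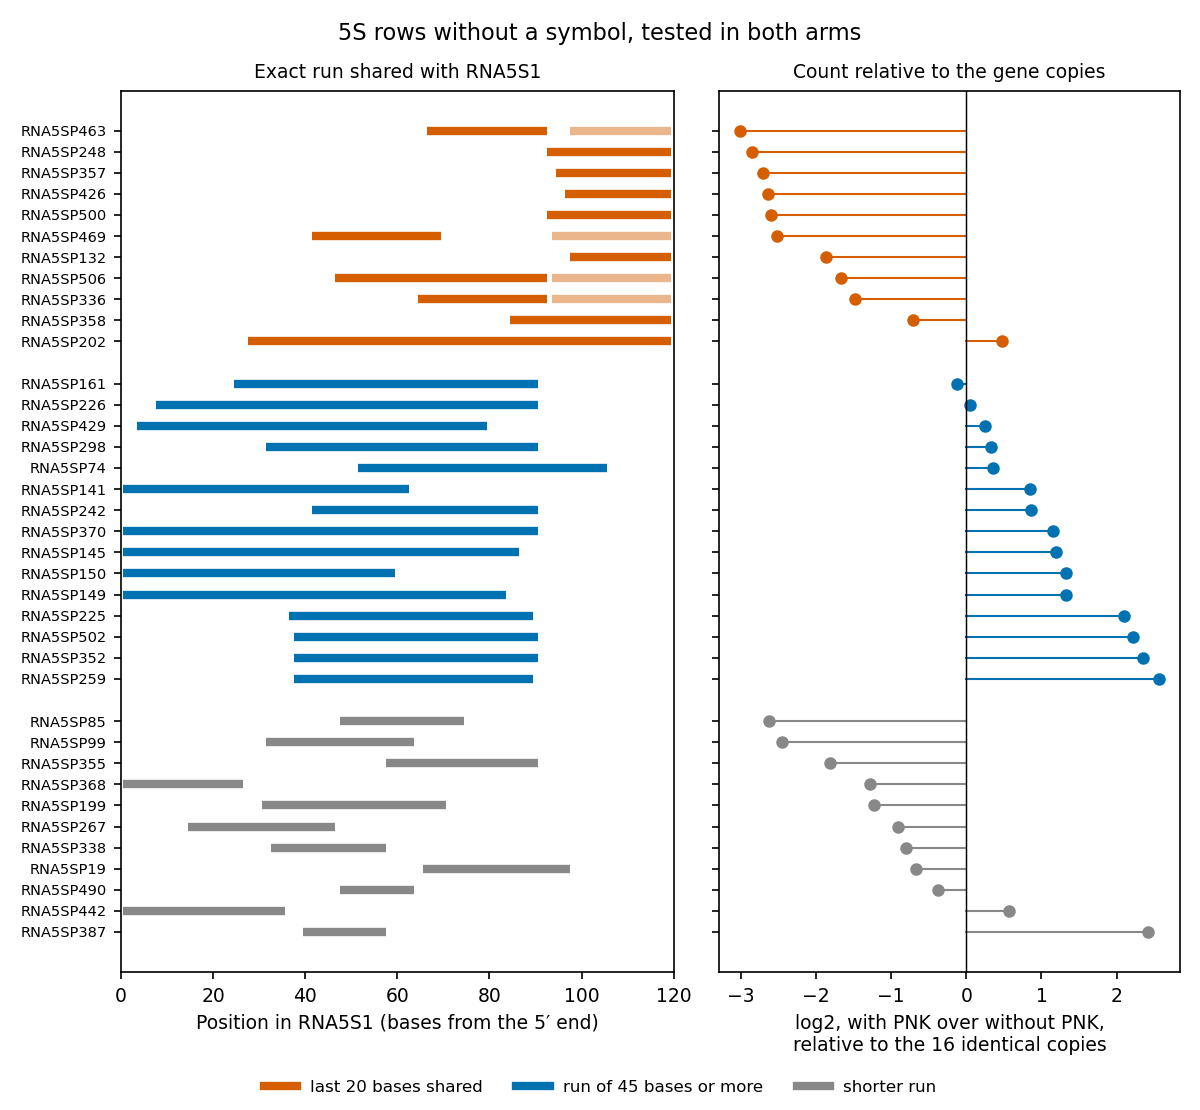
For the 37 rows without a symbol that were tested in both arms and have a sequence, the exact run shared with RNA5S1 (left, position in bases from the 5′ end; pale bars show a separate shared 3′ end) and the change of the row with PNK relative to the 16 copies (right, log2 of the ratio of medians over 15 libraries per arm). Rows that share the last 20 bases, in orange, lie at -3.01 to 0.48, and rows with a run of 45 bases or more, in blue, at -0.12 to 2.56.

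The 8 most abundant rows without a symbol were, in order of mean level, RNA5SP202, a row in an intron of FAM234B (URS00007125F9, chr12:13046152-13046263, plus strand), RNA5SP370, RNA5SP145, RNA5SP358, RNA5SP149, RNA5SP150 and RNA5SP141. RNA5SP145 lies in an intron of MED12L and RNA5SP150 over an exon of SOX2-OT, both on the host's strand. RNA5SP141 lies in an intron of EPHB1 on the opposite strand, and RNA5SP149 between genes. RNA5SP370, RNA5SP145, RNA5SP149, RNA5SP150 and RNA5SP141 all share an unbroken run from base 1 of the gene, of 90, 86, 83, 59 and 62 bases.

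The levels of the 5 rows with a run from base 1 share reads. RNA5SP370 had 233, 394 and 180 CPM in A4, 90.4, 46.1 and 66.9 CPM in A7, and 131, 118 and 72.7 CPM in E4. In G8 it had 206, 72.2 and 28.0 CPM, so that G8 library 1 lay inside the A4 range while library 3 was the lowest of the THP-1 libraries. The same order of G8 libraries held for RNA5SP145 (198, 68.2 and 25.4 CPM) and RNA5SP141 (122, 44.1 and 11.5 CPM). For RNA5SP370 the span across groups was 1.99 (adjusted p = 0.0420) and A4 exceeded A7 by 1.99 (SE 0.54, adjusted p = 0.0254). The call across groups ended without A4 library 1 or 2, any A7 or E4 library or G8 library 2 (adjusted p = 0.0518 to 0.184), and the call against A7 without A4 library 2 (0.0994), A7 library 2 (0.102) or A7 library 3 (0.0839). With G8 libraries 1 and 2 left out the span was 3.26 (0.00113). The difference of A4 from G8, 1.42 (SE 0.53), did not pass the test (adjusted p = 0.0893).

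Of the rows without a symbol that had the smallest adjusted p with PNK, 4 of 5 have their longest exact run in the middle of the gene. By smallest adjusted p they were a row in an intron of FIG4 (URS00006EA9AD, chr6:109753150-109753255, minus strand, opposite to FIG4), then RNA5SP225, RNA5SP71, RNA5SP352 and RNA5SP259. No sequence was matched to the FIG4 row. RNA5SP71 lies over an exon of SHCBP1L on its strand and shares bases 37 to 76 with RNA5S1, RNA5SP352 over an exon of SIAE on the other strand, and RNA5SP259 in an intron of FZD3.

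RNA5SP225 had 38.7, 39.3 and 49.9 CPM in A4, 18.03, 10.7 and 11.2 CPM in A7, and 17.1, 10.3 and 12.7 CPM in E4. In G8 it had 4.07, 2.52 and 4.38 CPM. All A4 libraries lay above, and all G8 libraries below, every library of A7 and E4, which overlapped each other. A4 exceeded G8 by 3.52 on the log2 scale (SE 0.28, adjusted p = 7.13e-06), A7 by 1.68 (SE 0.25, adjusted p = 0.000764) and E4 by 1.68 (SE 0.25, adjusted p = 0.00102). A7 exceeded G8 by 1.85 (SE 0.28, adjusted p = 0.00159) and E4 exceeded G8 by 1.85 (SE 0.28, adjusted p = 0.00143).

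The FIG4 row had 42.8, 48.8 and 55.2 CPM in A4, 20.6, 13.8 and 14.8 CPM in A7, 20.7, 16.5 and 17.9 CPM in E4, and 8.13, 5.46 and 7.09 CPM in G8. RNA5SP71, RNA5SP352 and RNA5SP259 gave the same picture, with A4 at 29.2 to 57.3 CPM and G8 at 2.73 to 5.57 CPM. Their runs and that of RNA5SP225 cover much the same stretch of the gene. These rows can therefore share reads and are not separate measurements. In all 5 rows A4 was separate above and G8 separate below. No call on them across the THP-1 groups, or between A4 and another of these groups, ended when a single library was left out. Their spans ran from 2.83 in the FIG4 row to 3.61 in RNA5SP71, against 1.44 in RNA5S1. The 5 rows were picked by adjusted p across these same groups. Wide spans, separation and calls that hold therefore go with the choice, which was not made for RNA5S1. Without PNK RNA5SP225 was at 0.380 to 1.31 CPM in the THP-1 libraries, and its span of 0.51 did not pass the test (adjusted p = 0.670).

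RNA5SP358, whose run is at the 3′ end, had a different order. It had 70.1, 72.9 and 124 CPM in A4, 132, 120 and 77.9 CPM in A7, 89.5, 62.7 and 117 CPM in E4, and 21.0, 12.6 and 52.7 CPM in G8 with PNK. G8 lay below the other groups, which overlapped. A4 and A7 differed by -0.31 (SE 0.42, adjusted p = 0.677), while A7 exceeded G8 by 1.93 (SE 0.43, adjusted p = 0.0141). That call ended without A7 library 1 (adjusted p = 0.0552), G8 library 1 (0.0645) or G8 library 2 (0.0512), and the difference was 1.08 (0.234) without both of these G8 libraries and 2.73 (0.000229) without G8 library 3.

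**Figure D4:**
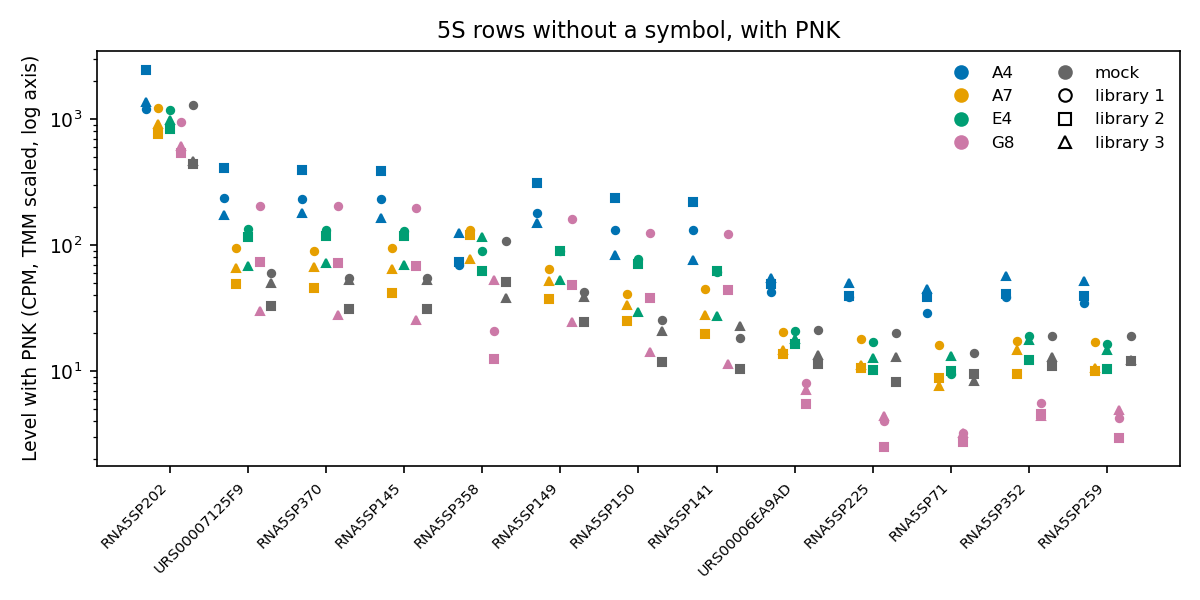
Levels with PNK, in CPM on a log axis, of the 8 most abundant rows without a symbol (RNA5SP202 to RNA5SP141) and the 5 with the smallest adjusted p across the THP-1 groups (URS00006EA9AD to RNA5SP259). Colours are groups and symbol shapes library numbers. In the 5 rows at right the A4 libraries, from 29.2 to 57.3 CPM, lie above and the G8 libraries, from 2.52 to 8.13 CPM, below all other THP-1 libraries.

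Split by exact run, the ratio of the A4 mean to the G8 mean with PNK had a median of 2.92 in the 11 rows that share the last 20 bases. The 15 rows with a run of 45 bases or more divided by where it starts: the 5 whose run starts at base 1 lay at 2.42 to 2.72, and the 10 others had a median of 9.93, with RNA5SP242 at 1.20, RNA5SP74 at 3.43 and the rest at 7.43 to 11.7. This splits a kind whose limits were chosen after the values were seen, and no test is given. The 5 rows share reads, as the others can where their runs cover the same stretch, and are not separate measurements. The median ratio was 5.63 in the 11 rows with shorter runs and 9.88 in the 7 rows without a sequence. Ratios ran from 1.20 in RNA5SP242 to 18.03 in RNA5SP267, whose G8 libraries held 1.07 CPM or less. Over all 5S rows tested, A4 was separate above the other THP-1 groups in 17 of 17 genes and 28 of 55 rows without a symbol. Of these genes, 16 are identical copies and not separate measurements. How often features outside the 5S rows were separate in this way was not computed. G8 was separate below in 16 rows without a symbol and in no gene, and A7 in RNA5SP242, which had 2.71, 1.55 and 2.12 CPM there against 4.02 to 12.6 CPM in the other THP-1 libraries.

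Compared in pairs with PNK, the 5S rows set A4 apart. A4 was higher than A7 in 58 of 72 rows, 17 of them genes, where 8.6% of all features were higher. It was higher than G8 in 59, again with all 17 genes, where 9.87% were. It was higher than E4 in 23 (5.89% of all features), and none of these was a gene. No 5S row was lower in A4 in any of the 3 pairs. Of the genes, 16 are identical copies, and rows without a symbol can share reads, so the counts are not of separate measurements.

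For RNA5S1, A4 exceeded A7 by 1.25 (SE 0.36, adjusted p = 0.0335) and G8 by 1.44 (SE 0.36, adjusted p = 0.0158). Its difference from E4, 0.80 (SE 0.36), did not pass the test (adjusted p = 0.183). The call on RNA5S1 against A7 ended without A4 library 2 (adjusted p = 0.163), A7 library 2 (0.119) or A7 library 3 (0.116), where 23, 22 and 21 rows were called. Against G8 it ended without A4 library 2 (0.0772, 35 rows) or G8 library 2 (0.0695, 38 rows). Against E4, 15 rows were called without E4 library 2. With library totals in place of TMM 38, 53 and 19 rows were higher in A4 than in A7, G8 and E4.

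That scaling moves the middle of all features, which lay at -0.30, -0.18 and -0.21 on the log2 scale in those pairs, in place of -0.01, -0.03 and -0.01. It also turned the split of all calls between A4 and A7 from 741 higher and 449 lower to 349 and 807, between A4 and E4 from 507 and 319 to 239 and 318, and between A4 and G8 from 850 and 444 to 553 and 425. None of the 5S rows was called lower in A4 under that scaling.

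The other pairs differed in fewer 5S rows, all without a symbol. A7 and E4 differed in none by edgeR (5 at an unadjusted p under 0.05, 1 by DESeq2), where 0.0929% of all features were called. A7 was higher than G8 in 13 rows (5.07% of all features were higher) and lower in RNA5SP242 alone (3.14% were lower). E4 was higher than G8 in 22 (6.53% were higher). RNA5S1 differed by -0.46 (A7 minus E4), 0.18 (A7 minus G8) and 0.64 (E4 minus G8), and none of these passed the test (adjusted p = 0.757, 0.809 and 0.279).

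Without G8 libraries 1 and 2 a single G8 library is left, which is taken to vary like the other groups. The 13 and 22 rows called higher than G8 with all libraries then all kept their direction, with medians of 1.41 in place of 1.62 for A7 and 1.502 in place of 1.62 for E4. The 59 rows called higher in A4 than in G8 kept their direction too, and RNA5S1 differed there by 2.17. With G8 library 2 alone left out, 8 rows were higher in A7 than in G8 and 12 in E4. With library totals 14 rows were higher in A7 and 21 in E4 than in G8, while the split of all calls went from 437 higher and 270 lower to 405 and 104 for A7 and from 562 and 396 to 468 and 209 for E4. The counts of higher rows were 8 for A7 without A7 library 1 and 14 for E4 without E4 library 1.

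**Figure D5:**
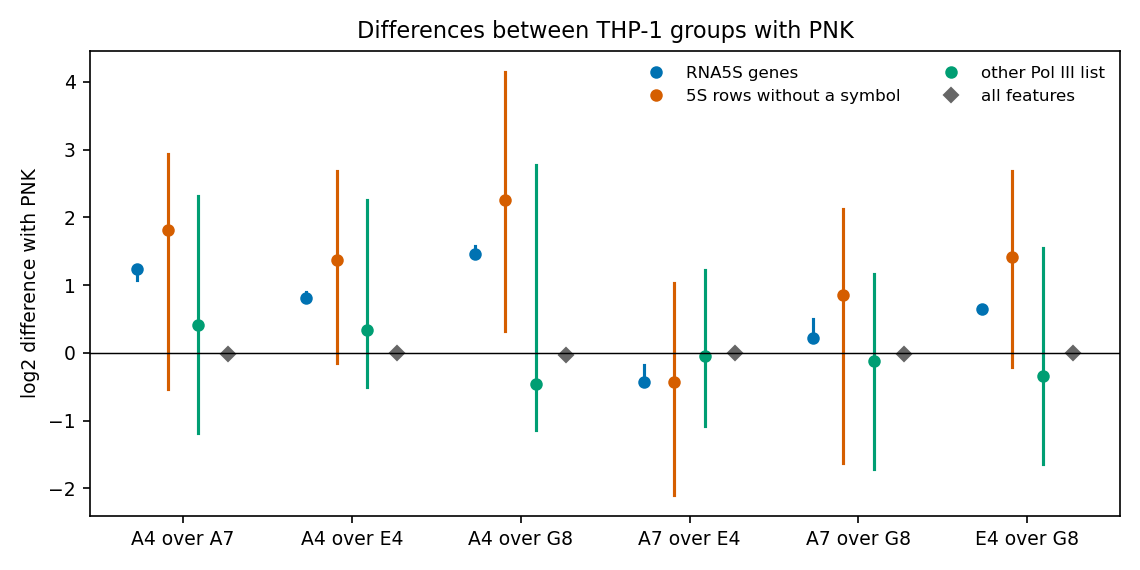
Differences between THP-1 groups with PNK on the log2 scale, for the 17 RNA5S genes, the 55 rows without a symbol, 23 rows of other Pol III RNAs and all features. Of the 23 rows, 9 are RNU6 rows of nearly the same sequence. Circles and diamonds are medians and lines run from the lowest to the highest row. The medians of both 5S classes lie above those of the other Pol III rows in all 3 comparisons of A4, and the genes, at 1.24, 0.81 and 1.46, lie below the rows without a symbol, at 1.82, 1.37 and 2.25.

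Without PNK the pairs gave few 5S calls. A4 exceeded A7 in RNA5SP199 alone (7.09% of all features were higher) and G8 in RNA5SP267 alone (15.4% were higher). A7 was lower than G8 in RNA5S10, RNA5SP442, RNA5SP149 and RNA5SP242 (11% were lower). RNA5S10 is a copy identical to RNA5S1, for which the same comparison gave -1.68 (SE 0.58, adjusted p = 0.0507), just outside the threshold. The remaining 3 pairs called none by edgeR, where 0.949% (A4 and E4), 0.112% (A7 and E4) and 22.3% (E4 and G8) of all features were called. At an unadjusted p under 0.05 there were 0, 1 and 1, and DESeq2 called 0, 1 and 0. The call on RNA5SP199 ended without any 1 of the 6 libraries compared, and that on RNA5SP267 without A4 library 1 or 2 or G8 library 1 or 2. All 4 calls between A7 and G8 were lost without A7 library 1 or 2, and without both G8 libraries 1 and 2, where the differences were -1.10 to -0.24 with a median of -0.75 in place of -1.41. Without G8 library 3, 24 rows were lower in A7 and 2 higher, and with library totals 1 row was higher and none lower. A4 was higher than A7 in 17 rows without A4 library 3 (217 of 1894 features) and in 27 by DESeq2 (289 of 1792 features). It was higher than G8 in 8 rows without G8 library 3.

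Against the libraries labelled mock, A4 with PNK again differed in most 5S rows. RNA5S1 had 691, 230 and 280 CPM in the latter. Library 1 stood well above the other 2 there, at the level of A7 and G8 library 1, but below the lowest A4 library. A4 was higher in 64 of 73 rows, all 17 genes and 47 of 56 rows without a symbol, where 8.27% of all features were higher. The rows can share reads and are not separate measurements. None was lower. RNA5S1 differed by 1.61 (SE 0.43, adjusted p = 0.0201), a call that ended without A4 library 2 (adjusted p = 0.120, 38 rows), mock library 2 (0.101, 35 rows) or mock library 3 (0.0997). Of all features, 487 of 9869 and 430 of 9619 were higher in the fits with 38 and 35 rows. With library totals 59 rows were higher in A4, and RNA5S1 differed by 1.13 (adjusted p = 0.0288). The split of all calls turned there from 763 higher and 271 lower to 436 and 1837, with the middle of all features at -0.53.

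The other groups differed from mock in few 5S rows with PNK. A7 was higher in RNA5SP490 alone (3.19% of all features were higher). E4 was higher in RNA5SP357, RNA5SP469, RNA5SP490, RNA5SP500 and a row named only URS00006ED0B7 (5.37% were higher). RNA5SP490 had 3.03, 1.39 and 2.26 CPM in A7, 2.96, 2.29 and 3.62 CPM in E4, and 0.963, 0.350 and 0.418 CPM in mock. Both groups lay above mock in all 3 libraries. The call in A7 ended without A7 library 1 or 3 or mock library 2 or 3. E4 was higher in 3 rows without E4 library 2 (296 of 9779 features). Library totals moved the middle of all features to -0.24 for A7 and -0.34 for E4, and the split of all calls from 294 higher and 162 lower to 105 and 171 in A7, and from 496 and 236 to 231 and 597 in E4. Without mock library 1, E4 was higher in 26 rows (502 of 9864 features). RNA5S1 was then higher by 1.48 (adjusted p = 0.0345), against 0.82 (SE 0.42, adjusted p = 0.270) with that library.

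G8 was lower than mock in 11 rows without a symbol (2.65% of all features were lower) and in no gene. Among them were RNA5SP225, which fell by 1.87 on the log2 scale (SE 0.34, adjusted p = 0.00355), and RNA5SP71, RNA5SP352, RNA5SP259, RNA5SP502 and the FIG4 row. RNA5S1 differed by 0.19 (SE 0.42, adjusted p = 0.855). Without G8 libraries 1 and 2 no 5S row was called, but all 11 kept their direction, with a median of -1.53 in place of -1.78, and RNA5SP225 differed by -1.63 (adjusted p = 0.113). With G8 library 2 alone left out 6 were lower (149 of 9908 features). With G8 library 3 left out 12 were lower and 6 higher (465 and 413 of 9627 features). With library totals 18 were lower, while the split of all calls went from 259 higher and 245 lower to 68 and 619, with the middle of all features at -0.34, and RNA5S1 differed by -0.23.

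Without PNK no 5S row of 64 differed from mock by edgeR in A4 (20 at an unadjusted p under 0.05), A7 (2) or E4 (1), and DESeq2 called none of them. G8 was higher in RNA5SP490 alone by edgeR (10.9% of all features were higher) and in 20 rows by DESeq2 (334 of 1842 features). All features were called in 1.3%, 0.38% and 4.07% of cases in A4, A7 and E4. RNA5S1 was higher than mock by 1.46 in G8 (SE 0.58, adjusted p = 0.0755), and by 0.06 once G8 libraries 1 and 2 were left out. Without G8 library 3 alone, 23 rows were higher and 1 lower, where 410 and 634 of 1939 features were. The call on RNA5SP490 ended with library totals and without G8 library 1 or 2 or any 1 mock library. These comparisons share the libraries labelled mock, and the groups differ from them in label of cell line and treatment as well, which cannot be told apart.

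Whether end repair raised or lowered the 5S rows depends on the scaling. In every group the edgeR test with TMM gave a lower RNA5S1 with PNK, by -1.82 in A4, -1.19 in A7, -1.59 in E4, -2.81 in G8 and -2.29 in mock. With library totals alone the differences were 1.58, 2.00, 1.74, 0.76 and 1.73. No direction is therefore claimed. The share of all counts in 5S rows was 1.77%, 2.96% and 1.49% in A4 with PNK and 0.850%, 0.758% and 0.266% without. In mock it was 1.45%, 0.603% and 0.725% with PNK and 0.223%, 0.227% and 0.397% without. Only in G8 did the arms overlap.

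Under TMM, 53 of 77 5S rows were called in A4 with PNK against without, where 85.9% of all features were, and 52 of 60 in A7 (91.9%), 54 of 66 in E4 (90.3%), 44 of 54 in G8 (88.6%) and 52 of 59 in mock (79.6%). All 17 genes were lower in each group under that scaling, where 16.8%, 18.8%, 17.8%, 14.6% and 17.7% of all features were lower in A4, A7, E4, G8 and mock. Of the rows without a symbol, 28 of 60 were lower in A4, 32 of 43 in A7, 35 of 49 in E4, 27 of 37 in G8 and 35 of 42 in mock. They were called higher in 8 cases in A4 (69% of all features were higher), 3 in A7 (73.2%), 2 in E4 (72.5%) and none in G8 or mock. Under TMM the 5S rows called were thus mostly lower with PNK where most features were higher, a direction that for RNA5S1 turned with library totals. The rows can share reads, so their counts are not of separate measurements.

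Other products of Pol III were read beside the 5S rows, from a list of 20 symbols. With PNK, 17 of 23 rows of the list differed across the THP-1 groups, where 22.2% of all features were called. Of the 23, 9 are RNU6 rows of nearly the same sequence and not separate measurements. RN7SL1, the RNA of the signal recognition particle, had 129, 1022 and 91.0 CPM in A4, 95.1, 73.5 and 82.3 CPM in A7, and 75.4, 81.3 and 59.1 CPM in G8. A4 library 2 stood far above all others. A4 exceeded G8 by 2.54 (adjusted p = 0.0174) and A7 by 2.31 (adjusted p = 0.0294), but by 0.62 (0.114) and 0.40 (0.347) without A4 library 2, and both calls also ended without other single libraries. RMRP, the RNA of RNase MRP, had 452, 973 and 272 CPM in A4, above all libraries of A7 (167, 96.7 and 139 CPM) and G8 (145, 123 and 173 CPM). A4 exceeded G8 by 1.96 (adjusted p = 0.00490) and A7 by 2.07 (adjusted p = 0.00483), and by 1.30 (0.0191) and 1.43 (0.0179) without A4 library 2.

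For RNY5, a Y RNA of the Ro particle, A4 exceeded G8 by 1.53 (adjusted p = 0.00932), a call that held without each single library. VTRNA1-3, a vault RNA, was low, at 3.53, 14.8 and 4.02 CPM in A4 and 0.428, 0.210 and 2.06 CPM in G8. A4 exceeded G8 by 2.77 (adjusted p = 0.0105), by 1.81 (0.0541) without A4 library 2 and by 4.43 (0.00250) without G8 library 3.

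U6, the Pol III RNA of the spliceosome, was higher in G8 than in A4. All 9 RNU6 rows, which share nearly the same sequence, were lower in A4, by -0.66 to -1.14, with adjusted p from 0.00313 to 0.0347, and by -0.81 to -1.32 with library totals. Without A4 library 1, 5 of the 9 were called, and without both G8 libraries 1 and 2, 1 was, with differences of -0.57 to -1.22. Between A4 and A7 none of the 9 passed the test, with differences of 0.26 to 0.69 (adjusted p = 0.0665 to 0.422), nor between A4 and E4, with 0.22 to 0.58 (adjusted p = 0.114 to 0.508). With library totals the differences from A7 ran from -0.050 to 0.37. Of the 23 rows of the list, 5 were higher in A4 than in A7 (741 of 8612 features) and 1, RNY3, was lower (449 of 8612). With library totals 4 rows of the list were higher and 5 lower. In all, 6 of the 23 rows were higher in A4 than in G8 (850 of 8612 features) and 10 lower (444 of 8612), the 9 RNU6 rows among the latter. RN7SK, the RNA that holds P-TEFb inactive, differed by -0.46 (adjusted p = 0.234). Against mock, 7 rows were higher in A4 (763 of 9228 features) and 10 in G8 (259 of 9228), and none was lower in either group. With library totals the counts were 6 higher and 10 lower for A4 against G8, 4 higher and 2 lower for A4 against mock, and 3 higher and 1 lower for G8 against mock, so the direction against mock depends on the scaling. Of 8 rows of the RNA polymerase I rRNAs (18S, 28S and 5.8S), the 3 rows of 18S differed across the THP-1 groups with PNK. They were higher in A4 than in A7, by 1.00 to 1.04 (adjusted p = 0.0250 to 0.0304), and lower in A7 than in G8, by -1.29 to -1.30 (adjusted p = 0.0120 each). None of the 8 differed between A4 and G8 by edgeR (0 at an unadjusted p under 0.05). The haematopoietic miRNA sum with PNK, a value that moves with cell kind or library content, was 174 to 312 CPM for A4, 289 to 550 for A7, 343 to 393 for E4, 38.8 to 128 for G8 and 80.7 to 82.1 for mock, and its part in the 5S differences was not tested.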

How the data were processed

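Small RNA counts per annotated region were analysed for 30 libraries. Per the labels' protocols, small RNA was enriched with mirVana PARIS and made into NEBNext Small RNA libraries with or without phosphatase and PNK treatment. The authors deposited whole-number counts per region. The submitters' processing notes name Trim Galore, FastQC, Bowtie2 2.3.5.1, SAMtools 1.9, deepTools 3.2.1, bedtools 2.28.0 and GRCh38, without their order. How reads with several alignments were assigned and whether strand was used are not given in the sources used here. If identical copies were filled by random choice of alignment, a copy's level is a share of the whole. The labels list 42 samples, and 12 of them without a column of counts are not analysed here.

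For library sizes and tests, a set of 85648 of the 175946 rows that do not overlap was taken, 5S rows first, then other short structured RNAs, longer ones and lncRNAs. Levels are CPM after TMM scaling within an arm, so levels of different arms are not compared. edgeR 4.0.16 (R 4.3.3) was used with its default expression filter and the quasi-likelihood test, and p-values were adjusted by Benjamini-Hochberg over all features tested, with a threshold of 0.05. Comparisons among the THP-1 groups used the 12 libraries of an arm, the comparisons with mock 15, and end repair 6 of a group. edgeR's common dispersion gave a biological coefficient of variation of 39.0% (no PNK) and 24.1% (PNK). On data simulated from the real means with 200 changes of 4-fold, A4 against A7, the test recovered 85.5% of them among 1612 features without PNK and 93% among 7326 with it.

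Sequences and gene types came from GENCODE 29, matched by strand and overlap (Python 3.11.15, pandas 2.3.3), and distances to RNA5S1 from edlib 1.3.9. The sequences themselves are not reported here. Rows were named by a rule: all RNA5S genes with RNA5S1 in full, the 8 rows without a symbol of highest mean CPM, up to 5 with the smallest adjusted p across the THP-1 groups in each arm (none passed without PNK), the lists of other Pol III RNAs and of RNA polymerase I rRNAs, and rows in counts of 5 or fewer. The members and lists were chosen with earlier results of these data known. Alternatives were DESeq2 1.42.0, its size factors in edgeR, library totals, no filter, all deposited rows, a replicate block, each library left out in turn, and G8 libraries 1 and 2 left out. Leaving out libraries for single rows other than RNA5S1 was added after seeing the data. Same-numbered libraries deviated together, with every correlation over 0.1, for A4 with E4, A4 with G8, E4 with G8 and A7 with mock without PNK, and for G8 between the arms, and the labels give no reason for a pairing.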

Additional observations from a re-analysis of the deposited data

How the results depend on the processing

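For RNA5S1 and the shares of 5S counts, 301 of the recomputed values kept their direction and their side of the threshold, 21 reversed, 15 came to pass the test and 13 no longer passed. Other results, such as the counts of 5S rows called, held less well: 314 stayed the same, 90 moved beyond a set limit and 40 were weaker. With PNK, every alternative that used all libraries kept A4 above A7, G8 and mock past the threshold.

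The largest difference across the THP-1 groups without PNK passed with DESeq2 (1.91, adjusted p = 0.0159) and without a filter (1.76, 0.0215), where 25 and 19 rows were called in place of 0. Of all features, 922 of 1792 and 524 of 27104 were called there, in place of 582 of 1792. A4 minus A7 without PNK passed with DESeq2 (1.72, 0.0179, 27 rows in place of 1) and without a filter (1.76, 0.00945, 18 rows). In that pair 430 of 1792 and 219 of 27104 features were called, in place of 210 of 1792. A7 minus G8 without PNK passed with DESeq2 size factors (-1.91, 0.0306, 22 rows in place of 4), DESeq2 (-1.91, 0.00511, 26 rows), no filter (-1.54, 0.0322, 16 rows) and all deposited rows (-1.96, 0.0480, 16 rows). G8 minus mock without PNK passed with DESeq2 (1.54, 0.0212, 20 rows in place of 1), where calls on all 1842 features went from 485 to 622. A4 minus G8 without PNK reversed with DESeq2 size factors (-0.19), DESeq2 (-0.19) and all deposited rows (-0.15). E4 minus G8 without PNK reversed without G8 libraries 1 and 2 (0.50). G8 minus mock with PNK reversed with library totals (-0.23) and without G8 libraries 1 and 2 (-0.56).

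The end repair difference reversed with library totals in all 5 groups (1.58, 2.00, 1.74, 0.76 and 1.73 in A4, A7, E4, G8 and mock). Without a filter it no longer passed in A7 (-0.37, adjusted p = 0.391) and mock (-0.82, 0.120). With no filter, rows called rose from 59 to 90 across the THP-1 groups with PNK, from 23 to 43 for A4 against E4, from 44 to 69 for end repair in G8, from 11 to 24 for G8 and from 5 to 19 for E4 against mock. All features tested rose as well, from 8612 to 44690 across the groups (1908 and 2382 called). They rose from 6639 to 34075 for end repair in G8 (5881 and 9451 called). Against mock they rose from 9228 to 47270, with 504 and 617 called for G8 and 732 and 885 for E4. The cause of these changes was not tested.

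Leaving out each library in turn gave RNA5S1 differences without PNK of 1.54 to 2.10 across groups, 1.36 to 2.10 for A4 minus A7, 0.50 to 1.23 for A4 minus E4, -0.37 to 0.72 for A4 minus G8, -1.09 to -0.70 for A7 minus E4, -2.07 to -0.99 for A7 minus G8 and -1.21 to -0.12 for E4 minus G8. Against mock they were 1.06 to 1.76 (A4), -0.51 to 0.030 (A7), 0.41 to 0.89 (E4) and 0.96 to 1.89 (G8). With PNK they were 1.01 to 1.89 across groups, 0.84 to 1.47 for A4 minus A7, 0.38 to 0.98 for A4 minus E4, 1.01 to 1.89 for A4 minus G8, -0.68 to -0.30 for A7 minus E4, -0.083 to 0.63 for A7 minus G8 and 0.37 to 1.09 for E4 minus G8. Against mock they were 1.20 to 2.26 (A4), 0.08 to 1.02 (A7), 0.54 to 1.48 (E4) and -0.28 to 0.84 (G8). For end repair they were -2.39 to -1.44 (A4), -1.44 to -0.97 (A7), -1.87 to -1.51 (E4), -3.34 to -2.10 (G8) and -2.80 to -1.92 (mock). The end repair fit of G8 without libraries 1 and 2 had no residual degrees of freedom and was not run.

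With the replicate number as a block, RNA5S1 across groups differed by 1.45 without PNK (adjusted p = 0.140) and by 1.51 with PNK (0.0170), and A4 exceeded mock with PNK by 1.76 (0.00565). No call on RNA5S1 changed under the block. Fewer 5S rows were called without PNK under it, 1 in place of 4 for A7 against G8 and 0 in place of 1 for A4 against A7, A4 against G8 and G8 against mock.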
